A study of Mus musculus with 6 samples.

Results

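The calpains and lysosomal cathepsins of skeletal muscle are represented here by 8 genes: the calpains Capn1, Capn2 and Capn3, the calpain small subunit Capns1, the calpain inhibitor Cast, and the cathepsins Ctsb, Ctsd and Ctsl. Their members are the 14 probe sets to which the array annotation gives exactly 1 of these symbols, out of 10833 probe sets with 1 symbol and 12422 in all. All 8 genes had at least 1 probe set. Total RNA of soleus, a postural hindlimb muscle that holds both slow and fast fibres, was measured in male mice on Affymetrix mouse expression arrays. Wild-type C57BL/6 mice gave 3 samples, and mice without estrogen receptor beta (BERKO, the knockout) gave 3. The labels give neither the age of the mice, nor the strain and allele of the knockout, nor whether each sample is a separate animal, so the p-values measure the spread among these samples, which may be technical. The series title names males and females, but the samples analysed here were from males.

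Muscle breaks down its proteins by several routes, of which calpains and lysosomal cathepsins are a pair. Calpains are calcium-dependent cysteine proteases of the cytosol that cut their substrates at limited sites, and so can release contractile and cytoskeletal proteins for later degradation. The conventional enzymes, encoded by Capn1 and Capn2, each work as a heterodimer with the small subunit Capns1, and calpastatin, encoded by Cast, holds both in check. Capn3 encodes the muscle calpain, which is anchored to titin in the sarcomere and is not held by calpastatin, and its loss causes a limb-girdle muscular dystrophy in humans. Cathepsins degrade proteins in lysosomes, where autophagy delivers them: the products of Ctsb and Ctsl are cysteine proteases and that of Ctsd is an aspartic protease. Ctsl transcript is a well-known marker of muscle wasting.

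Promoters of 7 of the 8 genes were found among RefSeq sequences of build GRCm38.p6, 12 promoters in all, each from 250 bases before to 50 after a start site. Ctsb was not matched. They were searched on both strands for CACGTG, the E-box that forms the core of the element shared by many lysosomal genes, and for the palindromic estrogen response element, GGTCA and TGACC with any 3 bases between them. The E-box letters lay in the promoters of Ctsd and Ctsl, and in 0 of the 10 promoters of the calpain system. Of all 32851 promoters of this length, 7.15% hold them. With so few promoters, a difference between the cathepsins and the calpain system was not tested, and none is drawn from these counts. The 3 sites are shown with the E-box in capitals.
Ctsd, 245 bases upstream, minus strand, chr7:142388055-142388077: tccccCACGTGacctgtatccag
Ctsd, 98 bases upstream, minus strand, chr7:142387908-142387937: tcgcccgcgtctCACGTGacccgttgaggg
Ctsl, 236 bases upstream, minus strand, chr13:64370739-64370768: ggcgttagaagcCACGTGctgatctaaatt
The distance is from the start site to the first base of the E-box, and the first site is shorter because the sequence begins there. The estrogen response element matched 0 of the 12 promoters, against 0.0700% of all promoters. These matches are letters in a sequence window and show neither binding nor its absence.

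Readings are the authors' signal intensities on a linear scale, and differences are knockout minus wild type on the log2 scale. Of the 14 probe sets 12 were tested, and each of these 12 read above the filter of 39.4 on all 6 arrays. In limma, 0 of 12 passed an adjusted p of 0.05, as did 0 of all 6369 probe sets tested (0.00%), with adjusted p between 0.923 and 0.996 for the 12. At an unadjusted p under 0.05 there were 2 of 12, against 5.24% of all probe sets. These 2, Capn1 on the higher side (2.81% of all probe sets) and a Capn3 probe set on the lower side (2.43%), were also the members whose groups did not overlap, against 10.7% of all probe sets. The median difference of the 12 was -0.06, with 5 higher and 7 lower, beside -0.02 over all probe sets, 46.8% of which were higher.

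**Figure D1:**
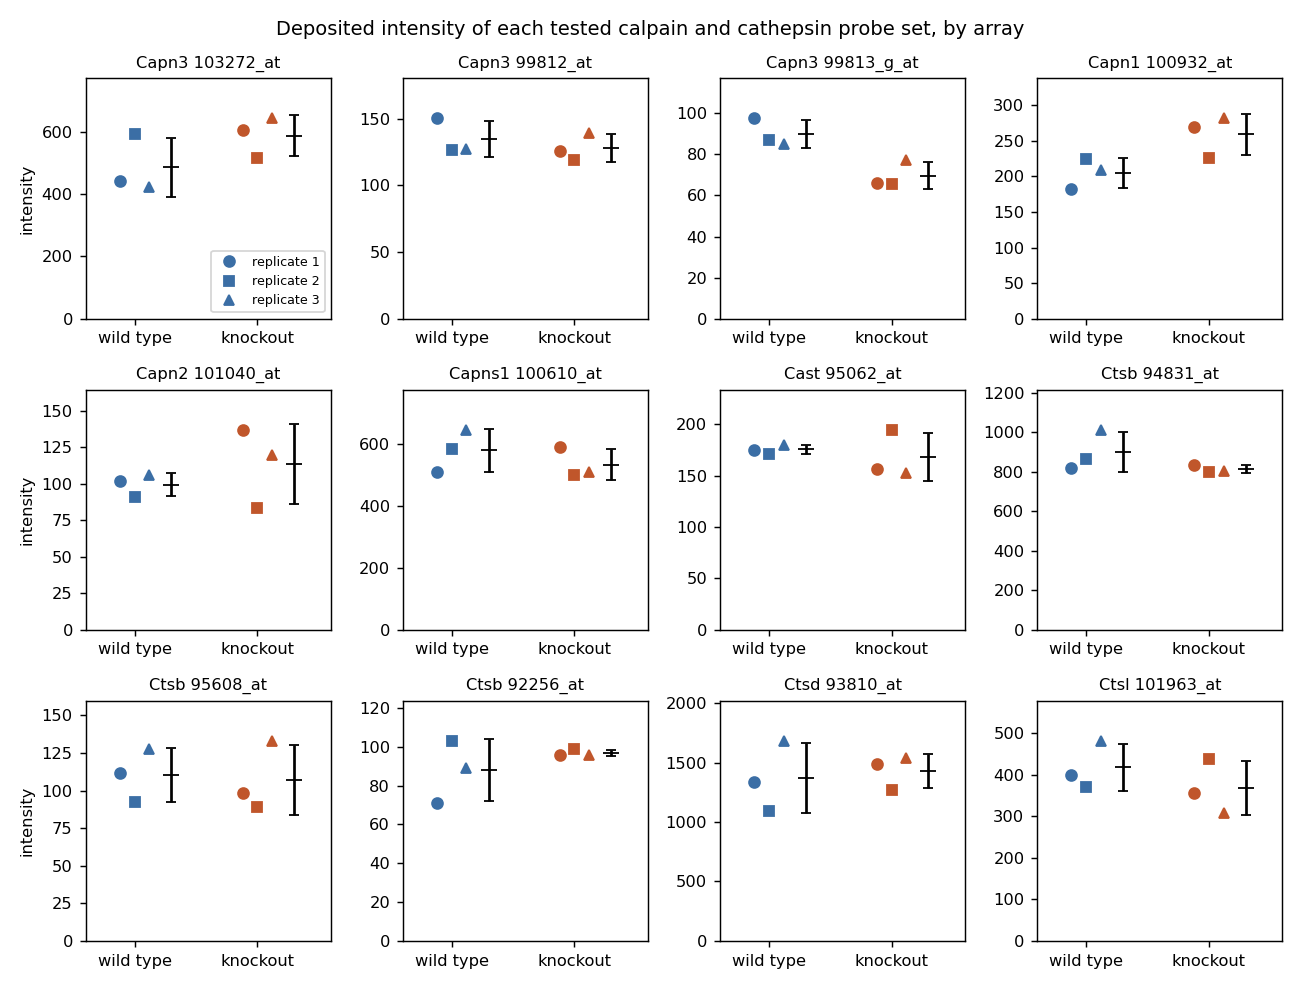
Deposited signal intensity (vertical axes, linear, from 0) of the 12 tested probe sets in wild type (blue) and knockout (orange), with the marker shape giving the replicate and the black bar the mean ± SD of 3 arrays. The groups are apart for Capn1, with knockout arrays at 226.6 to 281.6, and for the Capn3 probe set 99813_g_at, with knockout arrays at 65.4 to 77.3.

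The muscle calpain Capn3 has 3 probe sets, and they did not give the same direction. On the brightest, 103272_at, wild-type arrays read 440.5, 593.8 and 422.5, and knockout arrays 604.7, 515.3 and 642.9 (485.6 ± 94.1 and 587.6 ± 65.5; SD, n = 3 each). Wild-type replicate 2 lay above knockout replicate 2, so the groups overlapped. The difference was 0.29 ± 0.15 (SE), a ratio of 1.22 with a 95% interval of 0.959 to 1.55 (limma adjusted p = 0.937). Probe set 99812_at read 150.1, 126.6 and 127 in wild type against 125.9, 119 and 139.1 in the knockout. Its groups overlapped widely, with a difference of -0.07 and a ratio of 0.952 (interval 0.766 to 1.18). Probe set 99813_g_at, whose annotation cites the same source sequence as 99812_at, read 97.5, 87.1 and 85.2 in wild type against 66.3, 65.4 and 77.3 in the knockout. Here every knockout array lay below every wild-type array, with a difference of -0.37 ± 0.16 (SE) and a ratio of 0.774 (interval 0.606 to 0.988; limma unadjusted p = 0.0416, adjusted p = 0.923). Larger differences, in either direction, were seen for 10.9% of all probe sets tested.

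Because a ratio between probe sets of the same array does not change when the whole array is rescaled, the Capn3 probe sets were also set against each other within each array, a comparison chosen after their values were seen. The log2 ratio of 103272_at to 99813_g_at, relative to its wild-type mean, was -0.24, 0.35 and -0.11 in wild type against 0.77, 0.56 and 0.64 in the knockout. The groups did not overlap, and the shift was 0.66 (exact two-sided permutation p = 0.1, the smallest that 3 against 3 allows; adjusted p = 0.3 over 6 pairs of Capn3 and Ctsb probe sets). The ratio of 99812_at to 99813_g_at moved by 0.30, from values between -0.04 and 0.04 in wild type to values between 0.27 and 0.35 in the knockout (exact permutation p = 0.1, adjusted p = 0.3). That of 103272_at to 99812_at overlapped, with a shift of 0.36 (exact permutation p = 0.3). Among 885 such pairs of tested probe sets from 698 other genes, the ratio did not overlap between the groups in 9.60%, and 4.63% differed by more than the pair of 103272_at and 99813_g_at. Opposite signs in a pair were common, at 46.7%, and the median gap was 0.19. A single value for Capn3 transcript in the knockout therefore depends on the probe set read. RefSeq lists 2 promoters for Capn3, but which transcripts each probe set reads was not tested.

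**Figure D2:**
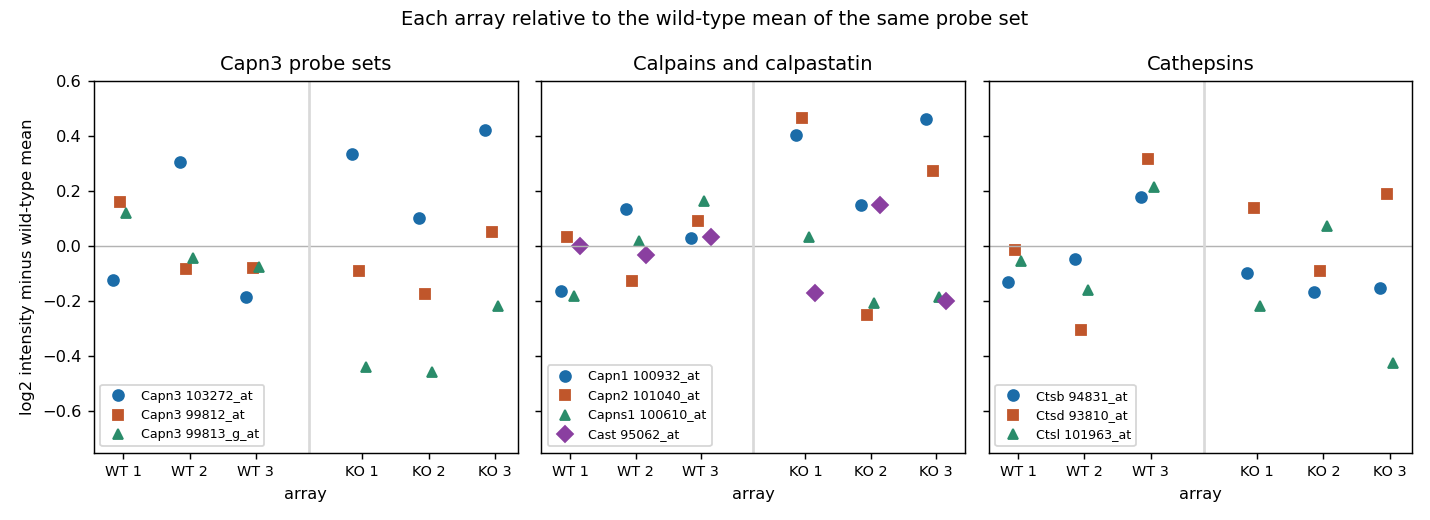
Log2 intensity of each array minus the wild-type mean of the same probe set (vertical axis), for the Capn3 probe sets, for the other calpain genes with calpastatin, and for the brightest probe set of each cathepsin gene; WT is wild type, KO is knockout and the number is the replicate. In the knockout the 3 Capn3 probe sets separate, from 0.10 to 0.42 for 103272_at and from -0.46 to -0.22 for 99813_g_at.

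Among the ubiquitous calpains, Capn1 was the member whose knockout arrays were all higher. Its probe set read 182.4, 224.2 and 208.7 in wild type against 270.2, 226.6 and 281.6 in the knockout (205.1 ± 21.1 and 259.5 ± 29.0; SD, n = 3 each). The gap between the groups was narrow, since replicate 2 read 226.6 in the knockout and 224.2 in wild type. The difference was 0.34 ± 0.14 (SE), a ratio of 1.26 with an interval of 1.02 to 1.57 (limma unadjusted p = 0.0381, adjusted p = 0.923), and 13.3% of all probe sets differed by more. Without wild-type replicate 1, which has the lowest Capn1 and the highest Capn3 reading on 99813_g_at, the differences of these 2 were 0.26 and -0.31 (limma unadjusted p = 0.142 and 0.140, adjusted p = 0.999). That array also had a red cell marker sum of 5724.8 over 4 genes, against 1986.2 to 2659.3 on the others, and the part of blood in these values was not tested.

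Capn2, the other catalytic subunit, read 101.7, 90.9 and 105.8 in wild type against 137.2, 83.5 and 120 in the knockout. Knockout replicates 1 and 3 lay above all wild-type arrays and replicate 2 below them, which gave a difference of 0.16 ± 0.19 (SE; ratio 1.12, interval 0.826 to 1.52; limma adjusted p = 0.964). Its second probe set, 162112_i_at, read 0.6 to 3.0 on all arrays, under the floor of 7.8, and is not a measure of transcript. The small subunit Capns1, which both enzymes need, read 507.6, 583.2 and 645.1 in wild type against 589.1, 499 and 507.3 in the knockout. The groups overlapped, at a difference of -0.12 ± 0.13 (SE; ratio 0.921, interval 0.755 to 1.12; limma adjusted p = 0.960).

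Calpastatin, Cast, was among the steadiest members in wild type, at 175.4, 171.5 and 179.7. The knockout arrays lay on either side of that range, at 156.1, 194.8 and 152.8, with replicate 2 the highest of all 6. The difference was -0.07 ± 0.14 (SE), a ratio of 0.951 with an interval of 0.766 to 1.18 (limma adjusted p = 0.984). Set against Capn1 within each array, the inhibitor's log2 ratio relative to its wild-type mean was 0.16, -0.17 and 0.0038 in wild type against -0.57, 0.0015 and -0.66 in the knockout. Knockout replicates 1 and 3 stood well below the wild-type arrays and replicate 2 among them, with a mean shift of -0.41 (exact permutation p = 0.2; adjusted p = 0.533 over the 8 ratios computed). Against Capn2 the shift was -0.24, with knockout arrays at -0.64, 0.40 and -0.47 (exact permutation p = 0.5).

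Of those 8 within-array ratios, 1 did not overlap between the groups, beside 9.60% of the 885 pairs of probe sets of 1 gene given above. A share over ratios of different genes was not computed. The ratio without overlap was Capn3 over Capns1, both on their brightest probe sets. It stood at 0.06, 0.29 and -0.35 in wild type and at 0.30, 0.31 and 0.60 in the knockout, a shift of 0.40 (exact permutation p = 0.1, the smallest possible; adjusted p = 0.533). The lead over the highest wild-type array was small, and with probe set 99813_g_at for Capn3 the shift turned to -0.25 (exact permutation p = 0.4). The muscle calpain against the ubiquitous enzymes gave -0.05 for Capn3 over Capn1 and 0.12 for Capn3 over Capn2 (exact permutation p = 0.7 each), with groups that overlapped. Read with 99813_g_at, these shifts were -0.71 and -0.53 (exact permutation p = 0.1 each, the smallest possible). With 99812_at they were -0.41 (exact permutation p = 0.1) and -0.23 (exact permutation p = 0.3), so the direction for the muscle calpain against Capn2 turned with the probe set. Capn3 over Ctsl, a calpain against a cathepsin, gave 0.48 (exact permutation p = 0.2), and -0.18 with 99813_g_at.

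None of the tested probe sets of the lysosomal cathepsins separated the groups over the 6 arrays, with differences between -0.19 and 0.16. Ctsd, the aspartic protease, read 1337.8, 1094.2 and 1684.6 in wild type against 1486.1, 1269.8 and 1542.3 in the knockout. All 3 knockout arrays fell inside the wild-type range, at a difference of 0.08 ± 0.16 (SE; ratio 1.06, interval 0.829 to 1.35; limma adjusted p = 0.984). Ctsl read 400.1, 371.8 and 482.4 in wild type against 357.2, 437.7 and 309.4 in the knockout. Knockout replicates 1 and 3 were the lowest of the 6 arrays and replicate 2 the next to highest, with a difference of -0.19 ± 0.16 (SE; ratio 0.877, interval 0.685 to 1.12; limma adjusted p = 0.958). Over the 4 arrays that share a title prefix, described further on, Ctsl stood at -0.40 without overlap, beside 41.0% of all probe sets (limma unadjusted p = 0.0306, adjusted p = 0.515).

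Ctsb, a cysteine protease with both endo- and exopeptidase activity, has 4 probe sets. The brightest, 94831_at, read 816.7, 865.6 and 1013.1 in wild type against 835.8, 796.6 and 804.9 in the knockout. Wild-type replicate 3 stood above the rest, and the others lay close together. The difference was -0.14 ± 0.11 (SE; ratio 0.908, interval 0.765 to 1.08; limma adjusted p = 0.958). Probe set 95608_at read 111.6, 92.2 and 127.6 against 98.4, 89.2 and 133.2, a difference of -0.06. Probe set 92256_at read 71.2, 103.1 and 89.1 in wild type against 95.7, 98.7 and 96 in the knockout, a difference of 0.16. The knockout arrays were tightly grouped inside the wild-type range. The remaining probe set, 162271_f_at, read 6.2 to 24.4 and did not pass the filter. None of the 3 within-array ratios between tested Ctsb probe sets separated the groups (exact permutation p = 0.2 to 0.8). Ctsd over Ctsb shifted by 0.22 (exact permutation p = 0.3) and Ctsd over Ctsl by 0.27 (exact permutation p = 0.4), both with overlap.

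Knockout replicate 2 differed from the other knockout arrays for several members at once. It was the lowest knockout array for 9 of the 12 tested probe sets, beside 39.0% of all probe sets, and the highest for 3 (35.3%): Cast, Ctsl and Ctsb on 92256_at. Replicate 2 of each group carries a different title prefix from replicates 1 and 3; what the prefix stands for is not given, and all 6 labels name the same array lot. Over the 4 arrays that share a prefix, the difference was 0.50 for Capn1, 0.53 for Capn3 on 103272_at and 0.31 for Capn2, and -0.40 for Ctsl and -0.20 for Cast. In the remaining pair of arrays the same genes stood at 0.02, -0.20, -0.12, 0.24 and 0.18. Capn3 on 99813_g_at was alike in both, at -0.35 and -0.41, as was Ctsb on 94831_at, at -0.15 and -0.12. Over the 4 arrays 7 of 12 members did not overlap, against 41.0% of all probe sets, and 0 of 12 passed an adjusted p of 0.05 in limma (lowest adjusted p = 0.469). At an unadjusted p under 0.05 in that fit there were 3 of 12, Capn1, Capn3 on 103272_at and Ctsl, beside 8.90% of all probe sets. The pair with the other prefix has 1 array a group and no test. The part of the prefix in these differences was not tested.

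**Figure D3:**
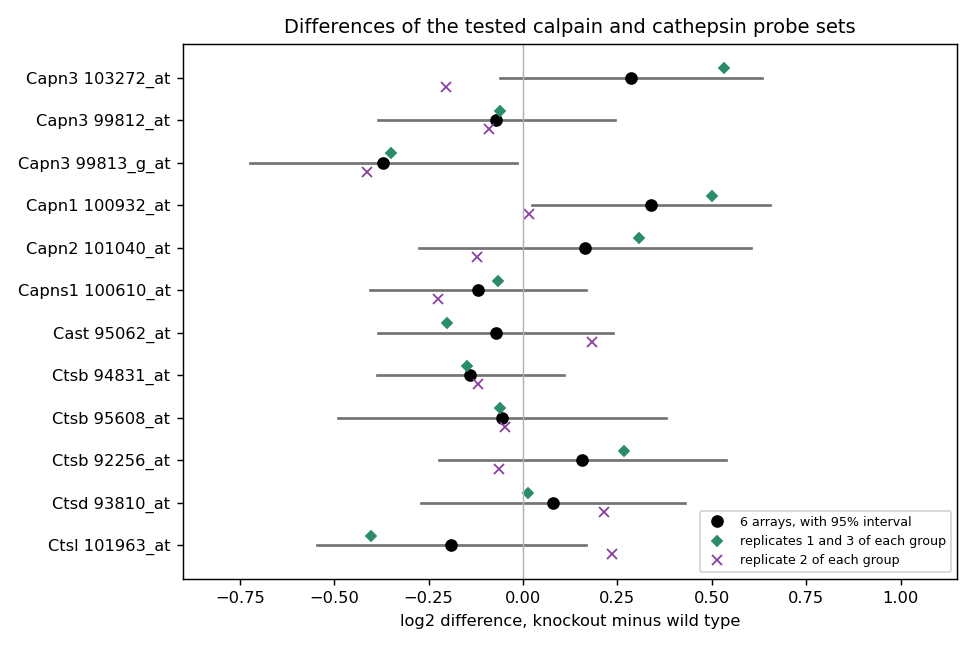
Log2 difference, knockout minus wild type (horizontal axis), of the 12 tested probe sets: black points with bars give the limma estimate over 6 arrays and its 95% interval, diamonds the 4 arrays that share a title prefix and crosses the other pair. The intervals of 10 probe sets include 0, and diamonds and crosses lie on opposite sides of 0 for Capn3 on 103272_at, Capn2, Cast, Ctsl and Ctsb on 92256_at.

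Genes that work beside these proteases were taken from 6 lists: other calpains, other cathepsins with legumain, cystatins, further lysosomal proteins, autophagy, and calpain partners and substrates in muscle. Of 100 such genes tested, on the brightest probe set of each, 43 were higher and 57 lower, with a median of -0.03 (-0.02 over all probe sets). In limma 0 passed an adjusted p of 0.05. At an unadjusted p under 0.05 there were 6 of 100, beside 5.24% of all probe sets, and the groups did not overlap for 12 of 100, beside 10.7%.

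Of 4 other calpains tested, 2 were higher and 2 lower, and 0 reached an unadjusted p of 0.05. Capn10, an atypical calpain without the calcium-binding domain of the classical enzymes, read 51.7 to 58.7 in wild type against 122.7, 40.2 and 70.1 in the knockout. Capn7 read 120.4 to 126 in wild type against 116.6, 179.3 and 114 in the knockout, and Capn6, which lacks the catalytic cysteine, 58.5 to 63 and 44.3 to 59.8.

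Of 9 other cathepsins and lysosomal proteases tested, 8 were lower and 1 higher, with a median of -0.12. Over all probe sets 46.8% were higher, with a median of -0.02. At an unadjusted p under 0.05 in limma there was 1 of the 9, beside 5.24% of all probe sets. Ctsk, a collagen-degrading cathepsin, read 83.5, 89.5 and 91.7 in wild type against 70.7, 60.2 and 71.1 in the knockout, without overlap. Its difference was -0.39 ± 0.16 (SE; limma unadjusted p = 0.0320, adjusted p = 0.923). Ctss, the cathepsin of antigen-presenting cells, read 144.4, 102.3 and 189.1 and then 123.6, 94 and 85.2, overlapping at -0.50 ± 0.23 (SE; adjusted p = 0.923). Ctse, an aspartic protease, was the higher member, at 118.5 to 149.2 in wild type against 160.7 to 171.2 in the knockout. Its probe set is of the family type, which can read related transcripts. Of the cystatins, which inhibit cysteine cathepsins, Cst3 and Cstb had differences of -0.08 and -0.02 (ratios 0.948 and 0.987).

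The 34 further lysosomal genes split into 13 higher and 21 lower, with a median of -0.04. Atp6v0e, a subunit of the proton pump that acidifies lysosomes, read 103.3 to 115.6 in wild type against 66.2 to 84.3 in the knockout, a difference of -0.58 ± 0.15 (SE; limma unadjusted p = 0.00439, adjusted p = 0.923). Lamp1, a protein of the lysosomal membrane, read 2029.2 to 2283.8 and 2471.4 to 2598.2 without overlap, a difference of 0.21 ± 0.09 (SE; unadjusted p = 0.0358, adjusted p = 0.923). The pump subunit Atp6v1a stood at -0.37 with groups that overlapped. Autophagy genes divided evenly, 13 higher and 13 lower of 26, with 0 at an unadjusted p under 0.05. The cargo receptor Sqstm1 had a difference of 0.16, as did the vesicle fusion protein Vamp8, whose probe set is also of the family type. The lipid kinase Pik3c3 stood at -0.92, a value that rests on knockout replicate 2 reading 7.4, under the floor, where the other 5 arrays read 37.1 to 63.5.

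Among partners and substrates of calpains, 5 of 25 read higher in every knockout array than in any wild-type array and 0 lower, beside 5.45% and 5.23% of all probe sets. These 5 were Tnnt3, Tnni2, Aldoa, Ryr1 and Sgca, of which Ryr1, Sgca and Tnni2 were named after their values were seen. The list as a whole had 14 higher and 11 lower and a median of 0.01. Tnnt3 and Tnni2 are also on the list of fast fibre markers given further on. At an unadjusted p under 0.05 in limma, 5 of those markers were higher and 2 lower. Tnnt3 was among the 5, and Tnni2 was not (limma unadjusted p = 0.0501). The part of fibre makeup in the count of 5 of 25 partners and substrates was not tested. The fast troponin Tnnt3 stood at a ratio of 1.18 and the glycolytic enzyme Aldoa at 1.24, the latter on a probe set of the family type. Ankrd2, a stretch-responsive protein that binds titin near Capn3, read 1700.3, 3270.5 and 2304.3 in wild type against 3104.5, 3455.2 and 4146.5 in the knockout (difference 0.60 ± 0.21, SE; limma unadjusted p = 0.0183, adjusted p = 0.923).

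**Figure D4:**
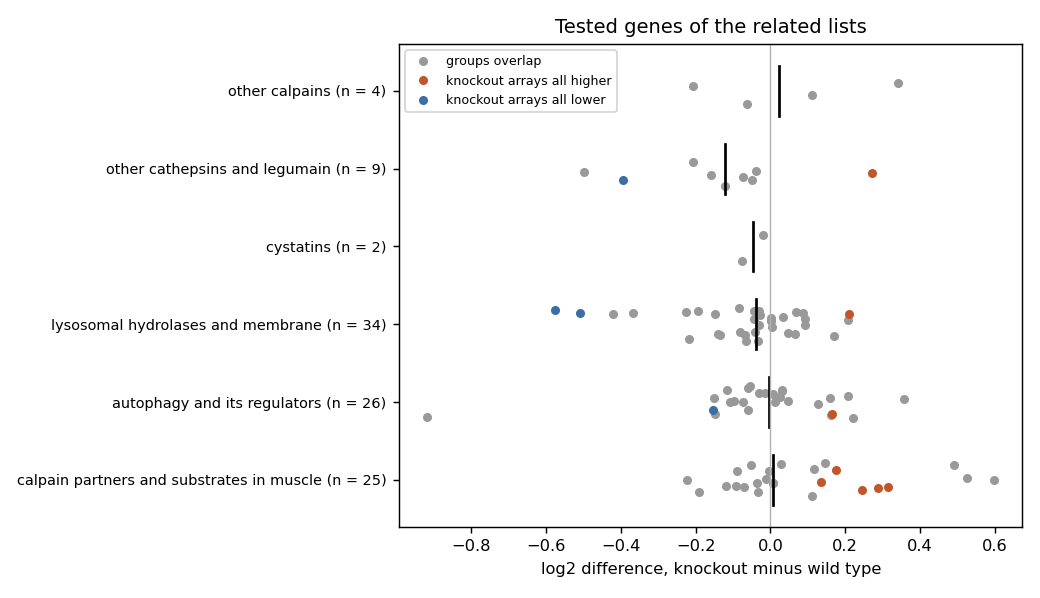
Log2 difference, knockout minus wild type (horizontal axis), of each tested gene of the 6 lists (1 point a gene, brightest probe set; vertical scatter within a row has no meaning); black lines are list medians, orange points have all knockout arrays higher and blue points all lower. The medians lie between -0.12 for other cathepsins and 0.02 for other calpains, and the orange points of calpain partners number 5.

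Cell types other than muscle fibres also make cathepsins, and in a whole muscle fewer cells of a type and less RNA per cell cannot be told apart. Of 17 macrophage markers on the array, 9 were tested, 3 higher and 6 lower, 0 of them at an unadjusted p under 0.05. Their summed intensity was 1256.2, 1263 and 1733 in wild type against 1405, 1114.8 and 1223.3 in the knockout. Wild-type replicate 3 had the highest sum, and it was also the wild-type array with the highest Ctsb on 94831_at and 95608_at, Ctsd and Ctsl. Ctsb on 92256_at was highest in wild-type replicate 2. In the knockout, replicate 1 had the highest sum and the highest Ctsb on 94831_at. There Ctsd was highest in replicate 3, and Ctsl in replicate 2, which had the lowest sum. Some defining markers were at or near the floor: Aif1 lay under the floor on all arrays, and Adgre1, Itgam and Ptprc read at most 10.5, while Cd68 read 72.2 to 87.6 and Csf1r 68.9 to 95.3. Ctss is itself on this list. The 9 fibroblast markers on the array, cells that make Ctsk, summed to 5206.3 to 6202.6 in wild type against 5302.9 to 5664.4 in the knockout. The part of these cells in the cathepsin values was not tested.

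Markers of slow fibres summed to 50502.2, 64854.1 and 59246.9 in wild type against 62648.8, 70523 and 61815.8 in the knockout, and those of fast fibres to 35633.1, 41175.2 and 35290.3 and then 40487.3, 41496.1 and 40657. The sums rest on a few very bright probe sets: Myh2 of the fast list read 2.2 to 23.4 and was not tested, and Casq2 of the slow list read 77.5 to 119.5. In both sums wild-type replicate 2 was the highest wild-type array, as it was for Capn3 on 103272_at and for Capn1. The knockout arrays did not follow this: replicate 2 had the highest knockout value of both sums, but the lowest of Capn3 on 103272_at and of Capn1. Of 9 slow markers 7 were higher, and of 11 fast markers 8, with medians of 0.17 and 0.24 (0 past an adjusted p of 0.05 in limma). At an unadjusted p under 0.05 there were 2 slow and 5 fast markers higher, beside 2.81% of all probe sets, and 2 fast markers lower, beside 2.43%. The lower ones had the largest differences of the fast list: Myh4, the myosin heavy chain of the fastest fibres, read 1610, 3670.9 and 499.4 in wild type against 211, 790.7 and 73.8 in the knockout (-2.64), and Actn3 stood at -1.48. Pvalb, lower but not at that threshold, stood at -0.32 (limma unadjusted p = 0.375). Of the higher fast markers, Casq1 stood at 0.42 and Myl1 at 0.27 (limma unadjusted p = 0.00449 and 0.00706). The part of fibre makeup in the Capn3 and Capn1 values was not tested.

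Across the 6 arrays, the genes whose centred log2 values lay closest to those of Capn3 on 103272_at were Mllt1, Rgcc, Epha8, Sprr2e and Cbr1, with root-mean-square differences of 0.035 to 0.067 among 5708 probe sets. Capn1 was the nearest other member, at 0.12, while the remaining Capn3 probe sets lay farther off, at 0.27 for 99812_at and 0.38 for 99813_g_at. For Ctsl the closest were Pcyt1a, Idi1, Pgrmc1, Stat6 and Cops2, at 0.033 to 0.065. Its nearest member was Cast, at 0.12, and Ctsd lay at 0.28. With so few arrays and many genes, closeness of this kind is a description of these libraries.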

How the data were processed

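The values are the authors' deposited signal intensities, 1 per probe set and array, on a linear scale. Their summarisation software is not stated in the labels or the file, and no detection calls were used. Array scaling by the authors was kept, and control probe sets were set aside. Values under the 20th percentile, 7.8, were set to that floor before log2, and testing was limited to probe sets above 39.4, the median of all values, on 3 or more of 6 arrays. Knockout minus wild type was fitted with limma 3.58.1 in R 4.3.3 (lmFit, then eBayes with a trend on intensity), with two-sided p-values adjusted by Benjamini-Hochberg across every tested probe set; ratios are 2 to the power of the log2 difference. Within-array ratios used exact two-sided permutation tests on the brightest probe set of each gene. The steps were tested on simulated data. At an adjusted p under 0.05 in limma, 58 of 100 simulated 2-fold changes and 92 of 100 4-fold changes were recovered, with 8 false calls. No tested member differed by as much as 2-fold. Plots used matplotlib 3.10.9 and Python 3.11.15.

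Members, lists and tests were chosen with earlier results of these data known. Genes named from a list are up to 3 per list with the smallest p; exceptions are stated. The alternatives were other scalings, floors, filters and limma settings, title prefix and adjacent title numbers as blocks, the 4 arrays sharing a prefix, other probe sets, and each array left out. Probe sets were ranked by mean intensity only to choose 1 per gene, and intensities of different probe sets do not compare transcript amounts. Protein sequences were not used here. Precision is limited by the number of arrays: the median SE of a log2 difference was 0.18.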

Additional observations from a re-analysis of the deposited data

How the results depend on the processing

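The count of member probe sets at an unadjusted p under 0.05, 2 as reported (Capn1 and Capn3 on 99813_g_at), was 1 after quantile normalization or cyclic loess and with the filter at the 70th percentile (Capn1 each time; the filter removed 99813_g_at), 1 with eBayes without a trend (99813_g_at), 3 with array weights (103272_at added), 2 with median scaling (103272_at in place of 99813_g_at), and 0 with adjacent title numbers as a replicate block; with each array left out in turn it was 0 to 3 (0 without wild-type replicate 1, wild-type replicate 3 or knockout replicate 1, and 1 without knockout replicate 3). Over all probe sets the count past an adjusted p of 0.05 in limma, 0 as reported, was 1 without the filter and 1 with that replicate block, and 0 to 1 with single arrays left out; none of these was a member. Deviations from the group means of arrays with adjacent title numbers correlated at -0.0052 to 0.035, and 2 of 6 arrays correlated best with their neighbour. With 3 arrays a group, such correlations over all probe sets cannot settle whether these numbers pair the samples. Capn1, Capn2, Capns1, Cast, Ctsl, Capn3 on 103272_at and 99813_g_at, and Ctsb on 94831_at and 92256_at kept their direction under every alternative in which they were tested. The pair of arrays with the other title prefix, 1 array a group, was not among these alternatives. In that pair Capn2, Cast, Ctsl, Capn3 on 103272_at and Ctsb on 92256_at had the opposite direction. Leaving out single arrays took Capn1 from 0.26 to 0.43, Capn3 on 103272_at from 0.19 to 0.44 and on 99813_g_at from -0.45 to -0.31, Capn2 from 0.012 to 0.37, and Ctsl from -0.32 to -0.072. The direction turned for values near 0: Ctsb on 95608_at (0.011 with median scaling, 0.017 with array weights, -0.23 to 0.064 with arrays left out), Ctsd (-0.011 with cyclic loess, -0.072 to 0.24 with arrays left out) and Capn3 on 99812_at (-0.13 to 0.011 with arrays left out). Among within-array ratios, Capn3 over Capn1 turned to 0.032 over the 4 arrays sharing a prefix (-0.16 to 0.035 with arrays left out). Capn3 over Capn2 turned to -0.23 with 99812_at and -0.53 with 99813_g_at (-0.016 to 0.34 with arrays left out). With 99813_g_at, Capn3 over Capns1 was -0.25 and Capn3 over Ctsl -0.18, and Ctsd over Ctsb was -0.077 with 92256_at for Ctsb. The ratio of Ctsb 94831_at to 95608_at ran from -0.19 to 0.092 with arrays left out. The cause of these turns was not tested.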
